A study of Mus musculus with 9 samples.

Results

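Genome scans in people have tied the thickness of the central cornea, and the thinning disease keratoconus, to regions that hold collagen genes and to regions that hold genes of quite different kinds. The mouse orthologs of 10 of the genes outside the collagen family were followed here: Arhgap20, Lrrk1, Ibtk, Mpdz, Hs3st3b1, Zfp469, Foxo1, Rxra, Fndc3b and Usp37. They were taken from the platform annotation as every probe set whose single gene symbol was 1 of the 10, which gave 28 probe sets of 45037 that were not array controls. RNA from the central cornea of adult male mice was hybridised to Affymetrix arrays, with 3 arrays for each of 3 inbred strains. The strains were SJL/J (SJL), labelled as having a thick cornea, C57BLKS/J (KS), labelled as having a thin cornea, and C57Bl/6J (B6), for which no thickness is labelled. All mice were 4 months old and were kept on the NIH 31 diet with 4% fat, and each array held the pooled 2-mm punches of both eyes of 1 mouse. Thickness and strain cannot be told apart in this design.

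Most of the cornea is stroma, a stack of collagen lamellae kept in order by keratocytes, and it is covered by a stratified epithelium outside and a pumping endothelium inside. The genes named for thickness loci include transcription factors, matrix-modifying enzymes, junction scaffolds and signalling proteins. A gene nearest to a human locus need not be the gene that acts there.

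By the naming of these arrays, an identifier ending in _a_at can match several transcripts of 1 gene, and one ending in _s_at can share probes with other transcripts. This holds for 3 of the 28 probe sets.

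Of the 28 probe sets, 17 were bright enough to be tested, and they covered 9 genes. The other 11 lay between 4.11 and 9.89 on every array, close to the lower end of the intensity scale, where 54.6% of all values were below 16. Log2 differences are between strain means of log2(intensity + 10), a scale that understates the changes of dim probe sets, and called means an adjusted p under 0.05 by limma with Benjamini-Hochberg adjustment over all 22519 probe sets tested. In SJL against KS, 5 of the 17 were called, 1 higher and 4 lower, where 15.5% of all tested probe sets were called, 6.98% higher and 8.52% lower. In KS against B6 1 of 17 was called, which was higher, where 5.71% were called in all, 2.91% higher and 2.8% lower. In SJL against B6 4 of 17 were called, 2 higher and 2 lower, where 16% were called in all, 7.92% higher and 8.09% lower. By the moderated F-test for any strain difference 4 of 17 were called, against 19.4% of all tested probe sets. The 5 calls of SJL against KS stood for Ibtk, Lrrk1, Mpdz, Hs3st3b1 and Rxra, the single call of KS against B6 was Arhgap20, and the 4 of SJL against B6 were Ibtk, Lrrk1, Mpdz and Arhgap20. The 1 higher in SJL against KS was a dim Rxra probe set, bright enough to be tested only through its SJL values. The median log2 difference of the 17 was -0.11 in SJL against KS, where that of all tested probe sets was 0.01, and 0.12 for KS against B6, where all tested probe sets had 0.02. No probe set of Foxo1, Fndc3b or Usp37 was called in any of these contrasts, and Zfp469 was not tested.

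**Figure D1:**
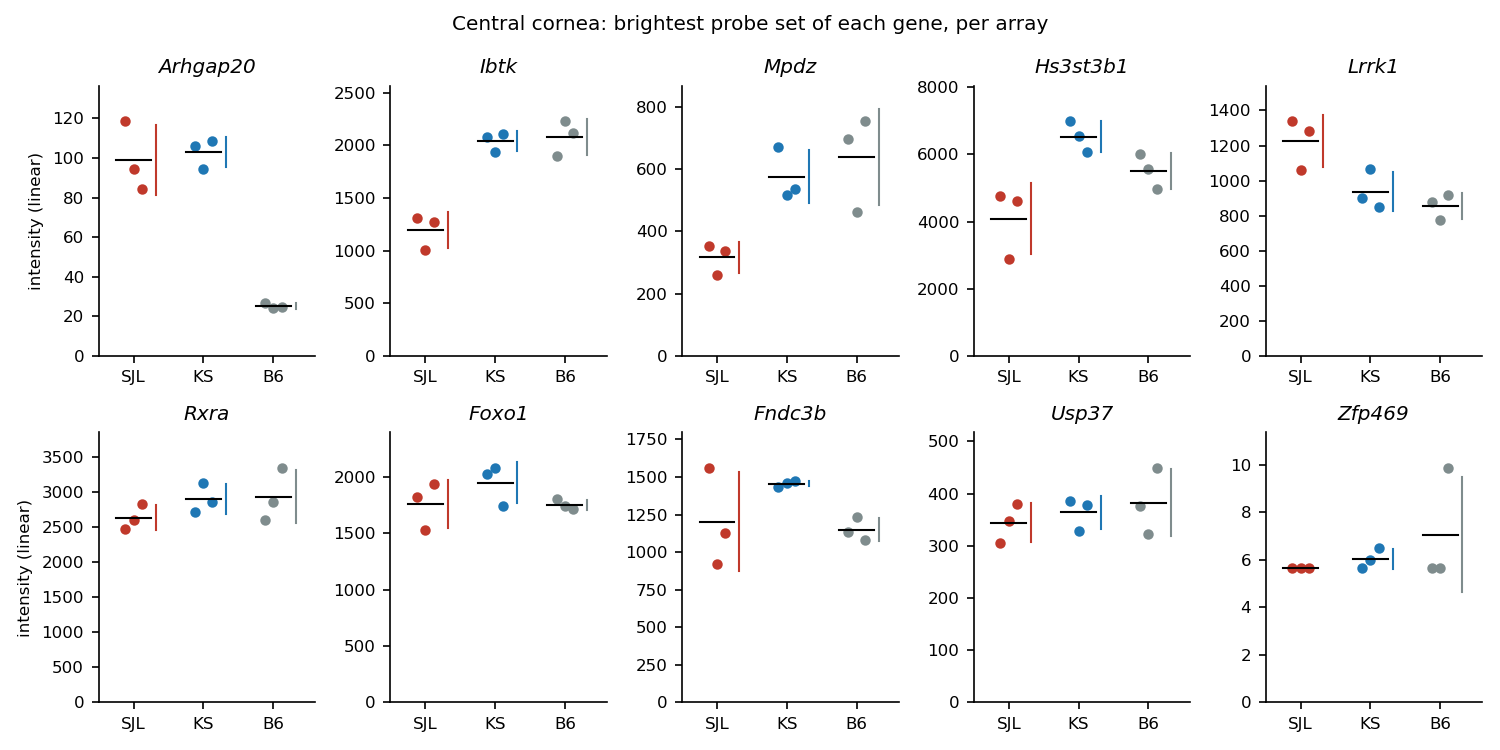
Intensity on a linear scale (vertical axis, from 0, its range set for each gene) of the brightest probe set of each gene on the 3 arrays of SJL, KS and B6. Points are arrays, black bars are means and the thin vertical lines span 1 SD either side. Arhgap20 is high in SJL and KS and low in B6, while Ibtk and Mpdz are low in SJL alone.

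The tissue labels were met by the markers examined. Summed intensity of 6 markers of corneal epithelium, Krt12 and Pax6 among them, lay between 121436 and 127325 on the 9 arrays, and that of 6 stromal markers, Kera and Lum among them, between 45117 and 56137. KS replicate 3 stood apart through photoreceptor transcripts, with a summed intensity of 4734 over 7 retinal markers against 33.5 to 42.9 on the other 8 arrays. Of those 7 markers, Prph2 and Pde6a stayed below 16 on all 9 arrays. Pigment cell markers summed to 28.2 to 114, with Tyr, Mlana and Tyrp1 below 16 throughout and the highest sum on B6 replicate 3. The log2 value of the 3' minus the 5' Gapdh control probe set, which is higher in more degraded RNA, was 1.17 on SJL replicate 2 and 1.55 on B6 replicate 3, against 0.73 to 0.93 on the other 7 arrays.

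Several markers of other cells differed in SJL, though not in 1 direction within a list. Over 5 markers of conjunctiva and limbus the summed intensity was 6537 to 8149 in SJL, 21174 to 23435 in KS and 23777 to 29148 in B6. Krt13 and Krt15 were lower in SJL than in both strains, whereas Krt19 was higher than in B6 (0.67, adjusted p = 0.0192 by limma), and Muc5ac, the goblet cell mucin, was below 16 on all 9 arrays. Krt4, with means of 4.09 in SJL, 19.0 in KS and 108 in B6, was called lower in SJL and KS than in B6. Its log2 differences from B6 were -2.97 in SJL (adjusted p = 0.00169 by limma) and -2.08 in KS (0.0229). Stromal and endothelial sums were lowest in SJL, at 45117 to 46921 and 9122 to 10855, against at least 49999 and 11742 in KS and B6. Aldh1a1 and Atp1b1 were called lower in SJL against both strains and Dcn against KS, while Kera, Lum and Col8a2 had log2 differences of 0.01, 0.04 and 0.04 in SJL against KS. Lens markers summed to 49.0, 94.1 and 116 in SJL, against 35.5 to 38.6 on the other 6 arrays. That was Bfsp1, called higher in SJL against both strains, since Cryaa, Bfsp2 and Mip were below 16 on all 9. Of 5 leukocyte markers Itgam was called higher and Cd74 lower in SJL against both strains, and the endothelial receptor Kdr was called lower in SJL against B6. The part of these shifts in the differences of SJL from KS and B6 given below was not tested. Fewer cells of a type and less RNA per cell cannot be told apart in such samples.

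Arhgap20, a GTPase-activating protein, showed the largest difference among the 17 tested probe sets. Probe set 1429918_at read 119, 94.2 and 84.4 on the SJL arrays, 106, 94.2 and 108 on the KS arrays, and 27.0, 24.3 and 24.5 on the B6 arrays. All 6 arrays of SJL and KS lay above all 3 of B6, and SJL and KS overlapped. The mean of 103 ± 7.65 in KS was 4.08 times the 25.2 ± 1.48 in B6 (SD, n = 3 each). That is a log2 difference of 1.68 (SE 0.12, adjusted p = 8e-05). SJL, at 99.0 ± 17.6, was 3.92 times B6, with a log2 difference of 1.62 (SE 0.12, adjusted p = 5.36e-05). Both differences stayed called when each array was left out in turn. Between SJL and KS the log2 difference was -0.06, with a 95% interval of -0.34 to 0.22 (adjusted p = 0.796). B6 was the strain that stood apart.

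The second probe set of Arhgap20 carried no such signal. Probe set 1427522_at had means of 4.58 in SJL, 4.54 in KS and 4.57 in B6, at the lower end of the scale, so the strain difference rested on 1 probe set. Along chromosome 9, 0 of the 10 nearest tested genes, 5 on each side, were called in KS against B6 by limma, where 6.27% of all genes were called by their brightest probe set. Sik2 and Fdx1, the nearest tested genes on either side, had log2 differences of 0.12 and 0.26 in that contrast. In SJL against B6, 1 of the 10 was called, Exph5, which was lower (-0.54), where 16.1% of all genes were called.

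Ibtk, which encodes an inhibitor of Bruton tyrosine kinase that also serves as a substrate receptor of a ubiquitin ligase, was lower in SJL than in both other strains. Probe set 1454905_at read 1314, 1004 and 1276 on the SJL arrays, 2081, 1935 and 2108 on the KS arrays, and 1898, 2231 and 2121 on the B6 arrays. Every SJL array lay below every array of KS and B6, and those 2 strains overlapped. The means were 1198 ± 169 in SJL, 2041 ± 92.8 in KS and 2084 ± 169 in B6 (SD, n = 3 each). The log2 difference was -0.77 in SJL against KS (SE 0.12, adjusted p = 0.00327) and -0.80 in SJL against B6 (SE 0.12, adjusted p = 0.00259). Both calls held under all 20 alternatives, leaving out each array included. KS and B6 differed by -0.03, with a 95% interval of -0.30 to 0.25.

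The 2 dimmer probe sets of Ibtk gave no called difference. Probe set 1434282_at, drawn from the same source sequence as 1454905_at per the platform annotation, had means of 8.59 in SJL, 8.08 in KS and 8.46 in B6. Its log2 differences were 0.04 in SJL against KS (adjusted p = 0.864) and 0.01 in SJL against B6. Probe set 1439285_at, which was not tested, averaged 4.15, 4.13 and 4.14 in SJL, KS and B6. Both lay near the lower end of the scale, where a fall cannot be measured. Around Ibtk on chromosome 9, 3 of the 10 nearest tested genes were called in SJL against KS, where 14.9% of all genes were called. Bckdhb and Tpbg were higher (0.91 and 1.10), and Me1 was lower (-2.26).

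Mpdz, a scaffold with many PDZ domains found at tight junctions, was likewise lowest in SJL. Probe set 1418664_at read 354, 261 and 336 on the SJL arrays, 673, 516 and 537 on the KS arrays, and 698, 464 and 754 on the B6 arrays. The SJL arrays lay below all others, and the KS and B6 arrays overlapped. SJL averaged 317 ± 49.5, KS 575 ± 85.0 and B6 639 ± 154 (SD, n = 3 each). The log2 difference was -0.97 in SJL against B6 (SE 0.20, adjusted p = 0.0129), a call that held without each array in turn. In SJL against KS it was -0.84 (SE 0.20, adjusted p = 0.0246). That call was lost without SJL replicate 2 (adjusted p = 0.0741) or 3 (0.0585) and without KS replicate 1 (0.0859), 2 (0.0521) or 3 (0.0598), with log2 differences from -0.92 to -0.71.

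The remaining 3 probe sets of Mpdz were too dim to be tested. Probe set 1442978_at had means of 6.51 in SJL, 7.59 in KS and 6.51 in B6, 1418663_at averaged 4.57, 4.82 and 4.57 in the same order, and 1441361_at averaged 4.56, 4.52 and 4.53. Of the 10 nearest tested genes on chromosome 4, 2 were called in SJL against B6, where 16.1% of all genes were called. Frem1, a basement membrane protein, was higher (1.48) and Zdhhc21 was lower (-0.64).

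Lrrk1, a kinase with leucine-rich repeats and a GTPase domain, gave opposite differences from probe sets of the same source sequence. Probe set 1451985_at read 627, 611 and 737 on the SJL arrays, 984, 1167 and 1004 on the KS arrays, and 893, 773 and 952 on the B6 arrays. The SJL arrays were below all others. SJL averaged 658 ± 68.3 and KS 1052 ± 100 (SD, n = 3 each), a log2 difference of -0.67 (SE 0.12, adjusted p = 0.00651), which held without each array in turn. B6 averaged 873 ± 91.3, and SJL against B6 gave -0.40 (adjusted p = 0.0567). That contrast was called without B6 replicate 2 (-0.48, adjusted p = 0.0453).

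Probe set 1451986_s_at ran the other way. It read 1339, 1058 and 1281 on the SJL arrays, 899, 1064 and 849.7 on the KS arrays, and 879, 775 and 918 on the B6 arrays. SJL lay above B6 on every array and overlapped KS. SJL averaged 1226 ± 148 and B6 857 ± 73.6 (SD, n = 3 each), a log2 difference of 0.51 (SE 0.13, adjusted p = 0.0304). This call was lost without SJL replicate 1 (adjusted p = 0.0781) or 3 (0.101), KS replicate 1 (0.0501), or B6 replicate 1 (0.0686) or 2 (0.0943). In SJL against KS, with KS at 938 ± 112, the log2 difference was 0.38 (adjusted p = 0.0856), and it was called without SJL replicate 2 (0.48, adjusted p = 0.0418).

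The third probe set of Lrrk1, 1437330_at, had a different source sequence and no call. It had means of 108 ± 32.8 in SJL, 105 ± 25.4 in KS and 75.4 ± 11.1 in B6 (SD, n = 3 each). Its log2 difference was 0.02 in SJL against KS, with a 95% interval of -0.49 to 0.53, and 0.44 in SJL against B6 (-0.07 to 0.95). No single direction could therefore be given for Lrrk1 in SJL. Of the 10 nearest tested genes on chromosome 7, 0 were called in SJL against KS by limma, where 14.9% of all genes were called. Of the same 10, 2 were called lower in SJL against B6, Aldh1a3 (-0.45) and Cers3 (-0.41), where 16.1% were called. In KS against B6 1 was called, where 6.27% were called, and it was Aldh1a3 (-0.48).

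**Figure D2:**
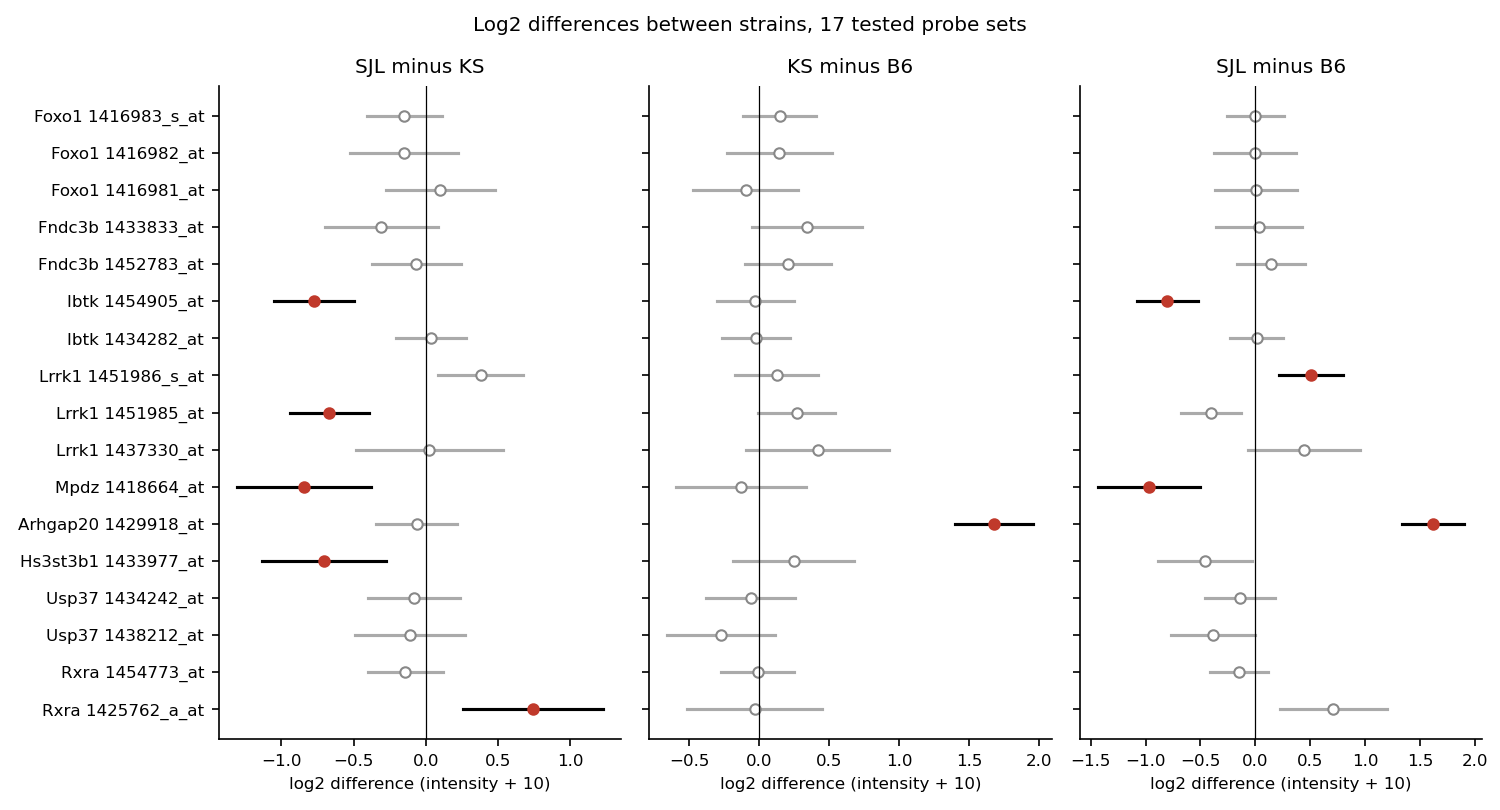
Log2 differences (horizontal axes, on the log2(intensity + 10) scale) of the 17 tested probe sets in SJL minus KS, KS minus B6 and SJL minus B6. Lines are 95% intervals from the limma fit, and filled points are called. The 2 brightest Lrrk1 probe sets fall on opposite sides of 0 in both contrasts that involve SJL, and Arhgap20 is the single call in KS minus B6.

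The disagreement within Lrrk1 was tested directly. For each gene with several tested probe sets, the brightest probe set minus each other one was taken on every array, which removes any factor common to both, and strains were compared by the moderated F-test over all 8437 such pairs. Of all pairs 16.7% were called. Among these genes 3 of 8 pairs were called, including that of Rxra, whose dim probe set was tested only through its SJL values. For 1451986_s_at minus 1451985_at the log2 value was 0.88 ± 0.17 in SJL, -0.17 ± 0.06 in KS and -0.02 ± 0.03 in B6 (SD, n = 3 each, adjusted p = 0.000436). The 3 SJL arrays, at 1.08, 0.78 and 0.79, were far above the other 6, which ran from -0.24 to 0.00. SJL differed by 1.05 from KS (SE 0.11) and by 0.91 from B6 (SE 0.11). An exact permutation test over the 1680 arrangements of the 9 arrays gave p = 0.00357 (0.0286 adjusted over the 8 pairs), the smallest it can give.

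The other 2 called pairs set a bright probe set against one at or near the lower end of the scale. For Ibtk the pair differed by -0.81 in SJL against KS (SE 0.13, F-test adjusted p = 0.0044), which holds the same fall of 1454905_at. For Rxra it differed by -0.88 (SE 0.18, adjusted p = 0.0148). Its dim probe set, 1425762_a_at, was bright enough to be tested only through its SJL values. Those same values set this pair apart in SJL, so its call is no independent sign of disagreement. The exact test gave 0.0952 for each of these 2 pairs after adjustment over the 8. The 5 pairs of Foxo1, Fndc3b, Usp37 and the third Lrrk1 probe set were not called, with adjusted p from 0.510 to 1.000. For 1416983_s_at minus 1416982_at of Foxo1 the log2 value averaged 0.91 in every strain. It differed by 0.00 between SJL and KS, with a 95% interval of -0.25 to 0.25.

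**Figure D3:**
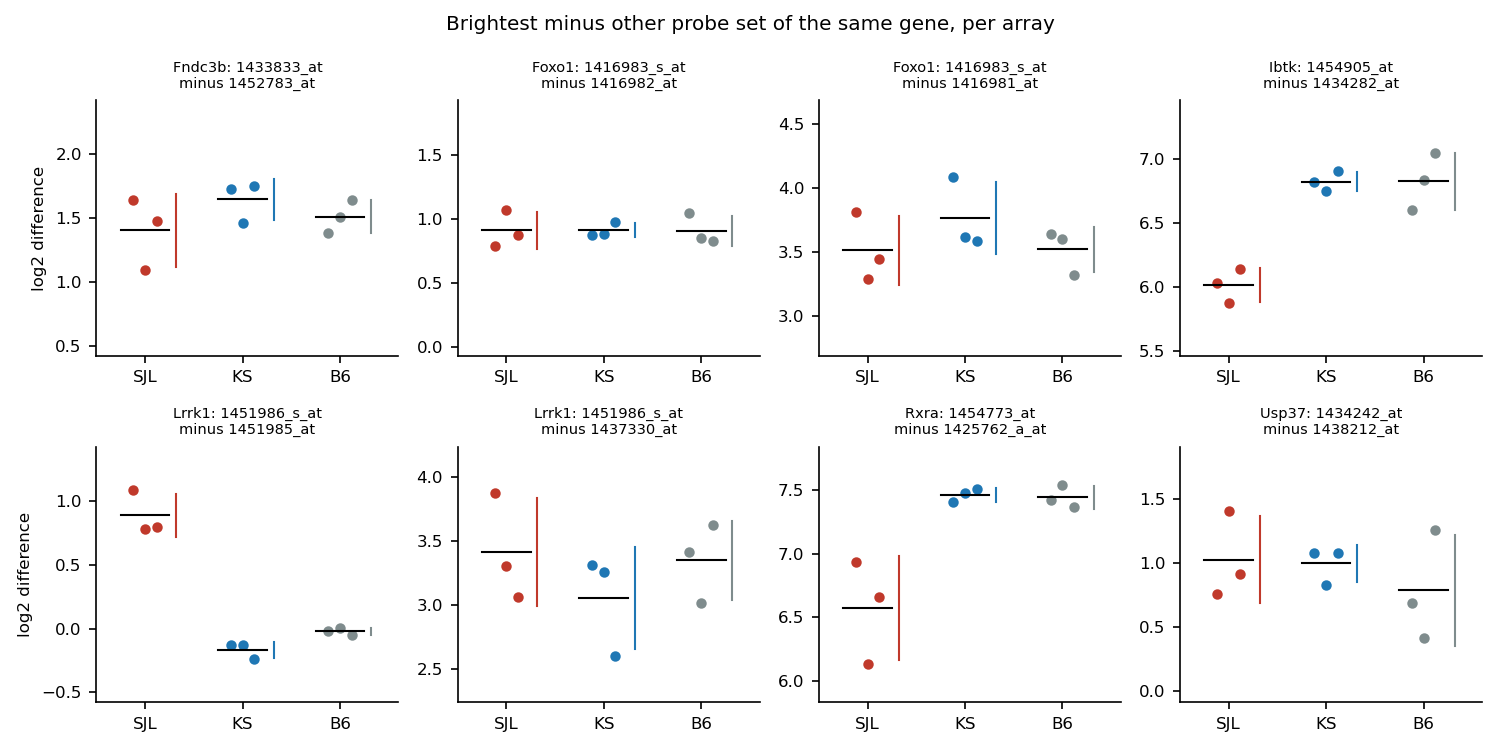
Log2 value of the brightest probe set minus another probe set of the same gene on each array (vertical axes, each spanning 2 log2 units) for the 8 pairs, by strain. Points are arrays, black bars means and thin lines 1 SD either side. The SJL arrays lie apart from KS and B6 for 1 Lrrk1 pair and for Ibtk and Rxra. The dim Rxra probe set was tested only through its SJL values.

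Hs3st3b1 encodes an enzyme that adds a sulfate group to heparan sulfate chains, which decorate cell surfaces and basement membranes. Probe set 1433977_at read 4761, 2885 and 4622 on the SJL arrays, 6987, 6533 and 6067 on the KS arrays, and 6022, 5557 and 4959 on the B6 arrays. The 3 strains did not overlap, with KS highest, B6 between and SJL lowest. SJL averaged 4090 ± 1045, KS 6529 ± 459.9 and B6 5513 ± 533 (SD, n = 3 each). The log2 difference was -0.71 in SJL against KS (SE 0.19, adjusted p = 0.0372). The call did not hold without KS replicate 1 (adjusted p = 0.112), 2 (0.106) or 3 (0.0765), nor without B6 replicate 1 (0.0532) or 2 (0.0577). B6 did not differ from either neighbour in that order beyond the threshold, with log2 differences of 0.25 for KS against B6 (adjusted p = 0.526) and -0.46 for SJL against B6 (adjusted p = 0.144).

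The other 3 probe sets of Hs3st3b1 lay at the lower end of the scale in all strains. They averaged 5.01, 4.78 and 4.70 (1421331_at), 4.70, 4.67 and 4.70 (1442816_at) and 4.63, 4.60 and 4.62 (1421332_at) in SJL, KS and B6. On chromosome 11, 3 of the 10 nearest tested genes were called in SJL against KS, Mmgt2 (0.39) and Trim16 (0.63) higher and 2810001G20Rik lower (-2.02), where 14.9% of all genes were called. Of 12 further enzymes of heparan sulfate synthesis on the array 7 were tested, and 0 were called in SJL against KS by limma, with 1 at an unadjusted p under 0.05 and a median log2 difference of -0.10, where 14.9% of all genes were called. Among the other tested probe sets of these genes, 1 of Glce was called higher and 1 of Hs2st1 lower in that contrast. In KS against B6, 1 of the 7 was called, where 6.27% of all genes were called, and another probe set of Hs2st1 was called higher. The 1 was Ext1, a polymerase of the chain, at 358, 474 and 416 in KS and 270.4, 285 and 312 in B6 (log2 difference 0.50, adjusted p = 0.036). The Ext1 call was lost without SJL replicate 1 or 3, KS replicate 2 or 3, or B6 replicate 1 or 2, with adjusted p from 0.0559 to 0.124. In SJL against B6 0 of the 7 were called by limma, with 3 at an unadjusted p under 0.05, where 16.1% of all genes were called. Another probe set of Glce was called higher in that contrast.

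**Figure D4:**
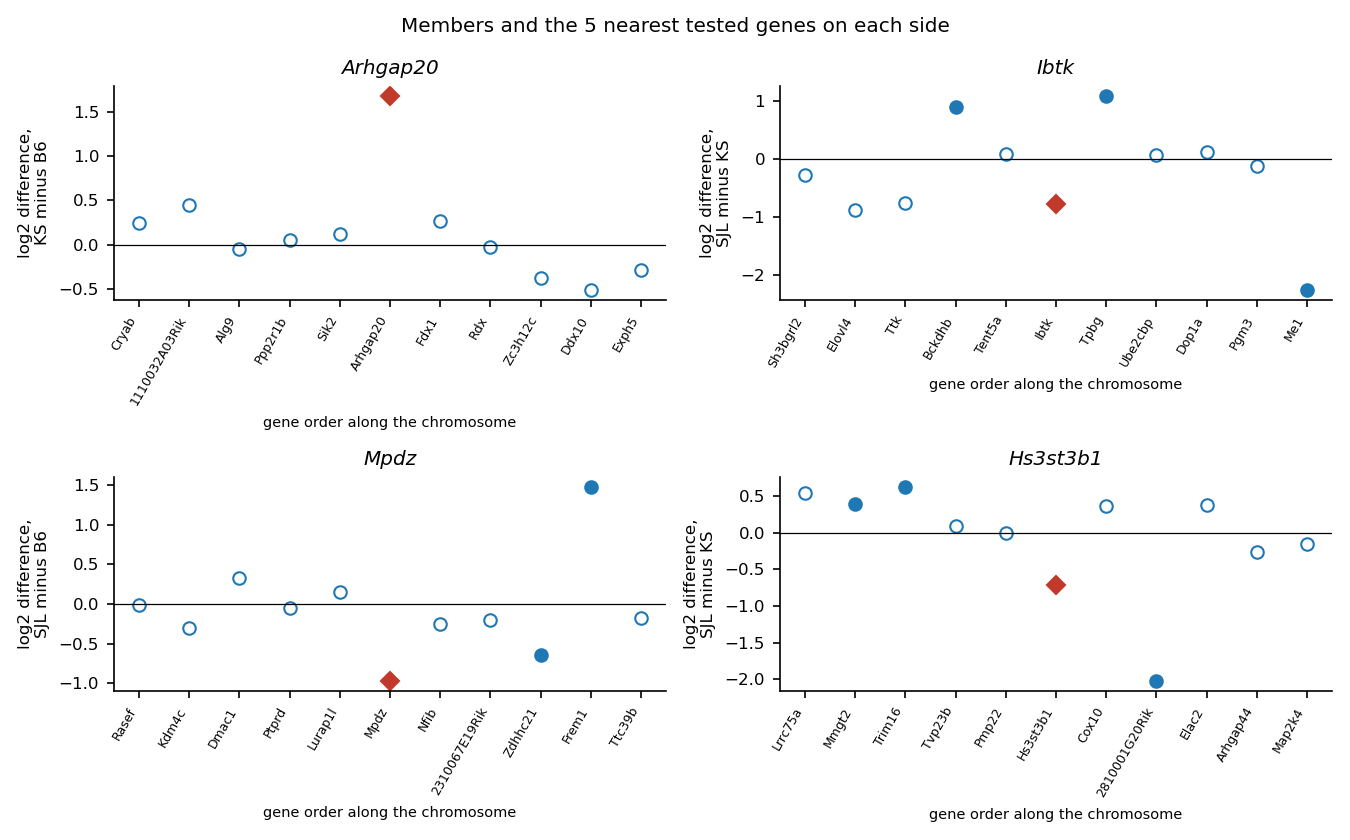
Log2 difference (vertical axes, contrast named on each) of 4 genes (diamonds) and of the 5 nearest tested genes on each side (circles, filled where called), in gene order along the chromosome on the horizontal axes. No neighbour of Arhgap20 is called in KS minus B6, and the called neighbours of the other 3 genes run in both directions.

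Zfp469, a zinc finger protein whose human counterpart is mutated in brittle cornea syndrome, had a single probe set, 1459622_at. It read 5.65, 5.65 and 5.65 on the SJL arrays, 5.65, 5.99 and 6.48 on the KS arrays, and 5.67, 5.65 and 9.89 on the B6 arrays. Of these, 1 B6 array stood above the rest, and all 9 lay near the lower end of the scale. These values show no level to compare between the strains. They also do not give the level of the transcript, since Hs3st3b1 and Ibtk had equally dim probe sets beside a bright one. Banp, by which the human locus is also named and which is the nearest tested gene on 1 side, differed by -0.03 in SJL against KS (adjusted p = 0.971).

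Foxo1, a forkhead transcription factor held in check by insulin signalling, had 3 tested probe sets and no call. Probe set 1416983_s_at read 1821, 1527 and 1938 on the SJL arrays, 2025, 2082 and 1741 on the KS arrays, and 1804, 1742 and 1718 on the B6 arrays. The strains overlapped throughout. Its log2 difference was -0.15 in SJL against KS, with a 95% interval of -0.41 to 0.11, and 0.15 in KS against B6 (-0.11 to 0.41). Probe set 1416982_at gave -0.15 (-0.52 to 0.23) in SJL against KS, with means of 940.2 in SJL, 1034 in KS and 930.4 in B6. Probe set 1416981_at gave 0.10 (-0.28 to 0.48), with means of 146, 136 and 145. The dim 1456529_at averaged 5.36, 5.06 and 5.10 in SJL, KS and B6.

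Relatives and known targets of Foxo1 were examined beside it. Of 13 such genes on the array 12 were tested. In SJL against KS 0 were higher and 2 lower, where 14.9% of all genes were called. In KS against B6 0 were called by limma, with 3 at an unadjusted p under 0.05, where 6.27% were called. For SJL against B6 1 was higher and 2 lower, where 16.1% were called. The median log2 difference in SJL against KS was 0.00, and that of all 10956 genes was 0.02. Cdkn1b, an inhibitor of cyclin-dependent kinases, had means of 5220 ± 918 in SJL, 7255 ± 674 in KS and 9654 ± 609 in B6 (SD, n = 3 each). It was lower in SJL than in B6 (-0.90, adjusted p = 0.00264), and lower than in KS (-0.48, adjusted p = 0.0464). The call against KS was lost when any array other than SJL replicate 1 was left out (0.0561 to 0.141). Ccng2, a cyclin linked to cell cycle arrest, had means of 1689 ± 112 in SJL, 2509 ± 286 in KS and 2851 ± 438 in B6. It was lower in SJL than in B6 (-0.74, adjusted p = 0.00701) and than in KS (-0.56, adjusted p = 0.0251), and the call against KS was lost without SJL replicate 2 or 3 or KS replicate 1 or 2 (0.0668 to 0.0871). Trp53inp1, a stress-induced nuclear protein, was higher in SJL than in B6 (0.56, adjusted p = 0.0438), a call that was lost without SJL replicate 1 or 3, any KS replicate, or B6 replicate 2 or 3 (0.0681 to 0.139). Among the other tested probe sets, that of Ccng2 was called lower in SJL against both strains, and 1 of Sesn1 lower against KS. The other tested probe sets of Cdkn1b and Trp53inp1 were called in no contrast.

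Rxra, the retinoid X receptor that pairs with many nuclear receptors, showed no called difference by its brightest probe set. Probe set 1454773_at read 2471, 2598 and 2826 on the SJL arrays, 2715, 3126 and 2861 on the KS arrays, and 2601, 2855 and 3347 on the B6 arrays. The strains overlapped. Its log2 differences were -0.14 in SJL against KS (95% interval -0.40 to 0.12), -0.15 in SJL against B6 (-0.41 to 0.11) and -0.01 in KS against B6 (-0.27 to 0.25).

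A dim probe set of Rxra was called. Probe set 1425762_a_at read 10.3, 27.1 and 18.0 on the SJL arrays, 6.14, 7.60 and 5.80 on the KS arrays, and 5.28, 5.42 and 10.4 on the B6 arrays. SJL lay above KS on every array and overlapped B6, and KS and B6 sat near the lower end of the scale. The brightness filter stands for an intensity of about 8.01, above the means of 6.52 in KS and 7.03 in B6. The probe set was therefore tested only through its SJL values (mean 18.5), the same values that make SJL higher. The log2 difference in SJL against KS was 0.74 (SE 0.21, adjusted p = 0.048). This call was lost without SJL replicate 2 (adjusted p = 0.102) or 3 (0.124), with KS replicate 1 (0.121), 2 (0.103) or 3 (0.135) left out, or with B6 replicate 1 (0.0676) or 2 (0.0669) left out. With no filter (0.153) or a pseudocount of 50 (0.0919) the limma call was lost as well. In SJL against B6 the log2 difference was 0.71 (adjusted p = 0.0553), called without SJL replicate 1 (0.94, adjusted p = 0.0106) or B6 replicate 3 (0.85, adjusted p = 0.049). The third probe set, 1430497_at, had means of 4.33 in SJL, 4.30 in KS and 4.31 in B6 and was not tested.

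Of 13 other nuclear receptors on the array that pair with Rxra, 5 were tested, namely Rxrb, Rarg, Vdr, Thra and Ppard. In each of the 3 contrasts 0 of the 5 were called by limma and 0 had an unadjusted p under 0.05. The shares of all genes called were 16.1% for SJL minus B6, 14.9% for SJL minus KS and 6.27% for KS minus B6. With only 5 receptors tested, 0 calls do not set them apart from other genes. On chromosome 2 the nearest tested gene on 1 side of Rxra was Col5a1, a chain of type V collagen by which the human locus is also named. Col5a1 had a log2 difference of -0.68 in SJL against KS (adjusted p = 0.144). It has 2 more tested probe sets, of which 1 was called lower there.

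Fndc3b, a membrane protein with fibronectin type III domains, had 2 tested probe sets and no call. Probe set 1433833_at read 1562, 920.5 and 1126 on the SJL arrays, 1436, 1460.3 and 1472 on the KS arrays, and 1132, 1232 and 1081 on the B6 arrays. The KS arrays lay above the B6 arrays, and the SJL arrays spanned both. The log2 difference was 0.34 in KS against B6 (95% interval -0.05 to 0.73, adjusted p = 0.322) and -0.31 in SJL against KS (-0.70 to 0.08, adjusted p = 0.28). Without SJL replicate 1 the second was called (-0.51, adjusted p = 0.0223). Probe set 1452783_at had means of 439.8 ± 48.9 in SJL, 460.4 ± 55.2 in KS and 398 ± 50.3 in B6 (SD, n = 3 each), and its log2 difference was -0.06 in SJL against KS.

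Usp37, an enzyme that removes ubiquitin, likewise had 2 tested probe sets without a call. Probe set 1434242_at read 306, 347 and 379.8 on the SJL arrays, 386, 328 and 379 on the KS arrays, and 376, 323 and 449.7 on the B6 arrays. The 3 strains overlapped, with a log2 difference of -0.08 in SJL against KS (95% interval -0.40 to 0.24). Probe set 1438212_at had means of 166 ± 37.2 in SJL, 177 ± 3.18 in KS and 217 ± 31.1 in B6 (SD, n = 3 each). It gave -0.38 in SJL against B6 (adjusted p = 0.171) and -0.11 in SJL against KS.

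Several human loci are named by a second gene, and these partners stood beside the same members in the mouse gene order. Nfib was the nearest tested gene to Mpdz on 1 side, Tent5a to Ibtk, Chsy1 to Lrrk1 and Pmp22 to Hs3st3b1, as Col5a1 was to Rxra and Banp to Zfp469. By brightest probe set, 0 of these 6 partners were called by limma in any contrast. An unadjusted p under 0.05 was reached by 1 in SJL against KS and by 0 in the other contrasts. Calls among all genes made up 16.1% for SJL minus B6, 14.9% for SJL minus KS and 6.27% for KS minus B6. For only 6 genes, 0 calls are therefore no sign that the partners differ from other genes. Of the 2 other tested probe sets of Col5a1, 1 was called lower in SJL against KS. Tent5a had means of 2179 ± 109 in SJL, 2061 ± 292 in KS and 2389.5 ± 447 in B6 (SD, n = 3 each), with a log2 difference of 0.09 in SJL against KS (adjusted p = 0.758). Nfib, a transcription factor, averaged 1380 ± 327, 1597 ± 7.36 and 1631 ± 338 in the same order. Chsy1, a chondroitin sulfate synthase, averaged 1798 ± 186, 1703 ± 198 and 1971 ± 25.5, and Pmp22, a membrane protein of myelin and epithelia, 2814 ± 190, 2831 ± 158 and 2654 ± 106. Pou2af1, the partner of Arhgap20, lay close to the lowest intensities, at 4.71 to 4.93 on all 9 arrays.

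Of 25 further orthologs of human thickness, keratoconus or brittle cornea loci on the array, 22 were tested. In SJL against KS 0 were higher and 3 lower, where 14.9% of all genes were called. In KS against B6 1 was higher and 0 lower, where 6.27% were called. For SJL against B6 0 were higher and 1 lower, where 16.1% were called. The median log2 difference of the 22 in SJL against KS was -0.18, where that of all genes was 0.02. The 3 lower in SJL than in KS were Tgfb2 (-1.06, adjusted p = 0.0126), Dcn (-0.37, adjusted p = 0.0168) and Col4a4 (-0.43, adjusted p = 0.0334). Of these calls, that of Tgfb2 was lost without KS replicate 2 or 3 (adjusted p = 0.0534 and 0.0507), that of Dcn without SJL replicate 3 or KS replicate 2 or 3 (0.0519 to 0.0695), and that of Col4a4 without SJL replicate 2 or 3 or KS replicate 1 or 2 (0.0646 to 0.121). All 3 other tested probe sets of Tgfb2 and the 1 other of Dcn were also called lower in this contrast, and 0 of the 2 others of Col4a4 were called. Dimmer probe sets of Col4a3 and Arid5b were called lower there and 1 of Tbl1xr1 higher. The 1 higher in KS than in B6 was Tgfb2, a growth factor that drives matrix production, at 222, 327 and 315 in KS and 137, 141 and 127 in B6 (log2 difference 1.02, adjusted p = 0.0319). Leaving out KS replicate 2 or 3 or any B6 replicate ended that call (0.0728 to 0.131), and 2 of the 3 other tested Tgfb2 probe sets were also called higher. The 1 lower in SJL than in B6 was Thbs2, a matricellular thrombospondin, at 2445, 1605 and 2175 in SJL and 3013, 2937 and 3419 in B6 (-0.61, adjusted p = 0.0312). The Thbs2 call was lost without SJL replicate 3, KS replicate 3 or any B6 replicate (0.054 to 0.0926), and 1 of its 2 other tested probe sets was also called lower. Against B6, dimmer probe sets of Arid5b (lower) and Tbl1xr1 (higher) were called in SJL as well.

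Over all 10 members, 100 neighbouring genes were examined. Called were 16 of the 100 in SJL against KS (14.9% of all genes), 23 in SJL against B6 (16.1%) and 3 in KS against B6 (6.27%). The spread within a strain was also compared. The median coefficient of variation of the 17 tested probe sets was 16.8% in SJL, 9.37% in KS and 11.4% in B6, where all tested probe sets had 13.8%, 8.71% and 12.4%. SJL replicate 2 was the lowest SJL array for 10 of the 17, among them Hs3st3b1, Ibtk, Mpdz and the brighter Foxo1 probe sets, and it was the lowest for 41.3% of all tested probe sets.

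The genes most like Arhgap20, Ibtk and Mpdz across the 9 arrays were taken by Pearson correlation of log2 values over the tested genes, as a description of 9 arrays in 3 strain groups. For Arhgap20 they were Cuedc1 (r = 0.98), which had means of 875 in SJL, 879 in KS and 46.5 in B6, and Thyn1 (r = 0.98). For Ibtk they were Tmf1 (r = 0.98), at 884 in SJL, 1269 in KS and 1239.8 in B6, and Prxl2c (r = 0.98). For Mpdz they were Gfpt1 (r = 0.99), at 2413 in SJL, 3268 in KS and 3432 in B6, and Acot11 (r = 0.98). Correlations above 0.95 were reached by 32 genes for Arhgap20, 55 for Ibtk and 8 for Mpdz.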

How the data were processed

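The authors deposited probe set intensity values on a linear scale for 9 arrays. The software, background correction and scaling behind them are not given in the sources used here, and upper quartiles of 380 to 396 show that the arrays had been brought close together. Columns were matched to samples by their identifiers, and strain and replicate came from the sample titles. Array controls were removed, log2(intensity + 10) was taken, and probe sets with a mean log2 value below the median were left out. A mean per strain was fitted with limma 3.58.1 in R 4.3.3 over the 9 arrays, with 6 residual degrees of freedom, and tests were two-sided. Permuting 3 arrays against 3 gives no p below 0.1, which is why the limma model was used for single probe sets. The code was run on independent normal values simulated with the fitted spread. Such a run checks the code and cannot cover differences between arrays in RNA quality or photoreceptor transcripts. Arrays have no read depth, and 3 per strain limit the precision.

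A gene with several probe sets was represented by the one with the highest mean, and every probe set of the 10 members is given. Of other lists, up to 4 called genes per contrast with the largest differences and all locus partners were named, as were the 2 genes most correlated with each member whose brightest probe set the F-test called. Neighbouring genes were named after their values were seen. Gene names and gene order came from the platform annotation and RefSeq (GRCm38.p6). Members and lists were chosen with earlier results of these data known. Replicate numbers did not pair the arrays, since correlations between the deviations of same-numbered arrays ran from -0.27 to 0.26. Each mouse was a separate sample per the labels. Alternatives were other filters, normalizations and pseudocounts, an intensity trend, array weights, a replicate block, a test against a fold of 1.2, fits on 6 arrays and leaving out each array. The same alternatives for the other gene lists were added after seeing the data.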

Additional observations from a re-analysis of the deposited data

How the results depend on the processing

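The Ibtk calls against KS and B6 and the Arhgap20 calls of KS and SJL against B6 held under every alternative that tested them. These were 4 of the 10 called values. No called value changed sign, and 24 of the 41 uncalled values changed sign under some alternative. Called probe sets in SJL against KS, 5 in the report, numbered 2 with no filter, 8 with array weights, 1 against a fold of 1.2, 3 on the 6 arrays of those strains, and 2 to 6 when each array was left out. In KS against B6 the count was 0 rather than 1 with the filter at the 70th percentile, which does not test Arhgap20, and 1 to 1 when each array was left out. In SJL against B6 it was 2 rather than 4 with no filter, and 3 to 5 when each array was left out. The F-test called 7 with an intensity trend and 9 with array weights rather than 4, and 3 to 6 when each array was left out. Disagreeing pairs, 3 in the report, numbered 6 with no filter, which adds pairs with dim probe sets, 1 by the exact permutation test, and 2 to 3 when each array was left out. Array weights raised the calls of the whole table in SJL against KS to 9450, where the report had 3489. With the replicate number as a block, the calls lost were Lrrk1 1451986_s_at in SJL against B6 (adjusted p = 0.0613) and Rxra 1425762_a_at in SJL against KS (0.0541), and no other call of these probe sets changed. Of the other gene lists, the block gave 0 calls rather than 1 in KS against B6 for the further orthologs (Tgfb2) and for the heparan sulfate enzymes (Ext1), as did no filter and the test against a fold of 1.2. The block gave 1 rather than 2 for the Foxo1 targets and 1 rather than 0 for the partners of Rxra in SJL against KS. The causes of these shifts were not tested where none is named. The 11 dimmest probe sets of these genes, Zfp469 included, limit what can be said of them, since no detection calls were used.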
